A study of Homo sapiens with 6 samples.

Results

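The heat shock response genes examined here were 10 genes of the 25702 listed in the count tables of K562 cells: the transcription factor HSF1, the HSP70 genes HSPA1A, HSPA1B and HSPA8, the HSP70 partners HSPH1 and DNAJB1, the cytosolic HSP90 genes HSP90AA1 and HSP90AB1, and the mitochondrial chaperonin genes HSPD1 and HSPE1. The members were the table rows whose NCBI Gene identifier belongs to these symbols, and all 10 were found. Of them, 9 passed the filter on low counts and were tested among 15431 genes, and HSPA1A did not pass.

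K562 is an established line derived from chronic myeloid leukaemia that carries erythroid features. Cells were nucleofected with a pCMV-HA plasmid, which drives its insert from a viral promoter and adds an HA tag. The plasmid was empty in the control group (EV), carried MXD3, a repressor of the MYC network, in the MXD3 group, or carried the leukaemia fusion STIM1::MXD3, in which the start of STIM1 replaces what is thought to be the repression domain of MXD3 while its DNA-binding domain remains. The genotype labels of the groups were control, MXD3 and STIM1::MXD3, and the treatment label of all was "no treatment", so none received heat or a chaperone inhibitor. Each group had 2 libraries, numbered replicate 1 and replicate 2 and described by the study as independent transfections. P-values of the plasmid comparisons therefore measure the spread between transfections of the same line. Those of the difference between replicate numbers rest on how far it varied among the plasmid groups. Expression was transient, and every library mixed cells with and without the plasmid. A smaller share of responding cells and less RNA per cell cannot be told apart in such bulk libraries.

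Total counts per library were between 53048343 and 63835779. MXD3 stood at 9.33 and 11.7 CPM (counts scaled to the library total after TMM correction) in EV against 1849 to 2523 CPM in the 4 libraries of the MXD3 and fusion plasmids, and STIM1 at 453 and 471 CPM with the fusion against 159 to 205 CPM in the other 4 libraries. These levels go with the labels. The 9 erythroid markers of K562 were all at 1 CPM or more in every library, summing to between 6943 and 9718 CPM. Of 14 markers of B cells, T cells, monocytes and epithelial or stromal cells, 5 reached 1 CPM in every library and 3 were at 0 in all, with summed levels of 123.7 to 145 CPM, of which EPCAM made up as much as 100.5 CPM.

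In the heat shock response, HSF1 is held inactive by chaperones in resting cells and is released when unfolded proteins occupy them. It then binds heat shock elements, which are alternating copies of a short unit in promoters, and raises transcription of chaperone genes. Part of the chaperone set, such as HSPA8 and HSP90AB1, is also made at high levels without stress, whereas HSPA1A and HSPA1B are the classic inducible genes.

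The promoters of these genes are shown because the heat shock element is the feature through which HSF1 acts on them. The RefSeq table (GRCh38.p14) gave promoters for 9 of the 10 members with 15 starts in all. Each promoter of 250 bases before and 50 bases after the start was searched on both strands for 3 alternating units, GAANNTTCNNGAA or TTCNNGAANNTTC. The exact letters were found at 4 of the 15 starts, 1 each of HSPA8, HSP90AA1, HSP90AB1 and HSPD1, and in 171 (0.489%) of 34943 promoters overall. With at most 1 given letter changed, HSPA1A, HSPA1B and DNAJB1 were added, which made 8 of the 15 starts against 6.24% of all promoters. No such letters were present in the windows of HSPH1 and HSPE1. The HSPE1 window begins at chr2:197500129 on the plus strand. It does not reach the matches of HSPD1, which start at chr2:197500090 on the minus strand. The shorter element of 2 units, GAANNTTC or TTCNNGAA, which lies within the longer one, was held at 1 start or more by 7 members, and by 13.5% of all single promoters. The 250 bases before the start with the most matches follow for 6 members, 5′ to 3′ on the strand of the gene. Capitals mark the matches to 3 units with at most 1 letter changed, and neighbouring matches may overlap.
HSPA1A, chr6:31815293-31815542, plus strand: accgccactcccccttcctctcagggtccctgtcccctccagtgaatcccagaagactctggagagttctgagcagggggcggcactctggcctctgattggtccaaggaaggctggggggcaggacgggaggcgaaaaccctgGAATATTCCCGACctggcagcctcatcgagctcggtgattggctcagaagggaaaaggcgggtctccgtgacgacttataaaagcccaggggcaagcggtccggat
HSPA8, chr11:123062137-123062386, minus strand: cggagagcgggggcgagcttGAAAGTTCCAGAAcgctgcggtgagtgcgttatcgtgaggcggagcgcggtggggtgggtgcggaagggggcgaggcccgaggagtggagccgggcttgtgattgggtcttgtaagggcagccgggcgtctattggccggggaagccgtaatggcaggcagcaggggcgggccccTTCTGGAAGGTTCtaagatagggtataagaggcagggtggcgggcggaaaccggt
DNAJB1, chr19:14518398-14518647, minus strand: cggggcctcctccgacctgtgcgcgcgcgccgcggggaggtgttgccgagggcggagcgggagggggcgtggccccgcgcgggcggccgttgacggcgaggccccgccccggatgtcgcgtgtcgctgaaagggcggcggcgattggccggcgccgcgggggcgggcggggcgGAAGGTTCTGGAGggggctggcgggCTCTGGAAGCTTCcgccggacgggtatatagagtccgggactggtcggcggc
HSP90AA1, chr14:102087045-102087294, minus strand: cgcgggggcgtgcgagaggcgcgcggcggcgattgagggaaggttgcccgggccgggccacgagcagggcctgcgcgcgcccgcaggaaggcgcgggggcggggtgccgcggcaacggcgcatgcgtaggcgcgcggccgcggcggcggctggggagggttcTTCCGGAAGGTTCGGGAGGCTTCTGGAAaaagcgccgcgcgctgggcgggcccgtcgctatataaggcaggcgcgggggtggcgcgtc
HSP90AB1, chr6:44247693-44247942, plus strand: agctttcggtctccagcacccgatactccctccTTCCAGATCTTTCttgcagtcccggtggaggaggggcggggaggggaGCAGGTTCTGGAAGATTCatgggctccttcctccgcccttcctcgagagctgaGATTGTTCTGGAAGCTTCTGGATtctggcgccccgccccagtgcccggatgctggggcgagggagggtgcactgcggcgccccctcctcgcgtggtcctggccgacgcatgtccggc
HSPD1, chr2:197499841-197500090, minus strand: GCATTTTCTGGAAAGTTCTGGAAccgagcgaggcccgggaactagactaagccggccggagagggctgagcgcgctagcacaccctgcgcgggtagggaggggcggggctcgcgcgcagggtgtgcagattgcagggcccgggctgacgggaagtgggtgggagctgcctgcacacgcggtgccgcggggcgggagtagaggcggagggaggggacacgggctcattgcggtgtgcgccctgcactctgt
The nearest match to the start began 52 bases before it in DNAJB1 and 55 bases before it in HSPA8. In HSPD1 the matches lay at the far end of the window, from 250 bases before the start. Overlapping matches formed longer runs in HSPD1, HSP90AA1 and HSP90AB1.

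The levels of the members were compared first. Per kilobase of the canonical transcript, HSP90AB1 (Gene ID 3326; GRCh37, chr6:44213903-44221625, plus strand), the constitutive cytosolic HSP90, was the highest, with a mean of 730 CPM per kb over the 6 libraries (range 666 to 841). HSPA8 (3312; chr11:122928197-122933938, minus strand), the constitutive HSP70, had 337 CPM per kb (288 to 383), HSP90AA1 (3320; chr14:102547079-102606036, minus strand), the stress-inducible HSP90, 324 (278 to 390), and HSPD1 (3329; chr2:198351308-198381461, minus strand), the mitochondrial HSP60, 281 (269 to 310). The ranges of the latter 3 genes overlapped, and all lay below every value of HSP90AB1.

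A lower level was seen for the small partner of HSPD1 and for the regulators. HSPE1 (3336; chr2:198364864-198368173, plus strand), the HSP10 lid of the mitochondrial chaperonin, stood at 89.0 CPM per kb (68.4 to 110.1), HSF1 (3297; chr8:145515273-145538383, plus strand) at 70.4 (56.1 to 84.4) and DNAJB1 (3337; chr19:14625581-14671203, minus strand), the HSP40 that delivers substrates to HSP70, at 63.2 (37.4 to 91.6). These 3 ranges overlapped. HSPH1 (10808; chr13:31709110-31736525, minus strand), the HSP110 that exchanges the nucleotide of HSP70, was at 11.8 CPM per kb (9.89 to 14.4), below all of them. By mean CPM, HSP90AB1 ranked 29 of the 15431 genes tested, HSP90AA1 82, HSPA8 143 and HSPD1 186, and the 10 members together held 0.439% to 0.524% of the counts of a library.

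HSPA1A (3303; chr6:31783320-31785723, plus strand) and HSPA1B (3304; chr6:31795515-31798031, plus strand) were nearly absent from the tables. HSPA1A had 7 and 2 counts in EV, 7 and 0 with MXD3 and 8 and 2 with STIM1::MXD3, and HSPA1B had 14 and 9, 12 and 0, and 9 and 3 counts in the same order. A count of 0 allows up to 3 counts. Most genes around them were low too. Of the 85 protein-coding genes that start within 1 megabase of HSPA1A, 6 (7.06%) had a mean of at least 1 CPM, the highest being AGPAT1 at 6.7 CPM, against 55.1% of 889 genes on the rest of chromosome 6 and 60.2% of 17802 genes on the other chromosomes. Widely expressed genes of this window, picked here after their values were seen, such as the splicing factor LSM2 (0 to 0.146 CPM), the kinase subunit CSNK2B (0.511 to 1.16 CPM), the chaperone BAG6 (1.02 to 2.19 CPM) and the RNA helicase DDX39B (0.182 to 7.86 CPM), also had low values, and HSPA1L, the third HSP70 gene at this locus, was at 0 in every library. In addition, 73.8% of the 75-base windows of the HSPA1A transcript occurred exactly in another transcript, for the most part that of HSPA1B. The counts of HSPA1A and HSPA1B can thus not be read as their level in the cells, and where values of HSPA1B are printed no direction is read from them.

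The other 8 members had between 1940 and 117765 counts in every library, so the counting error at the lowest count was 2.27%, or 3.21% if both ends of each read pair were counted, and the spread between libraries set the precision. The share of transcript windows also present in another gene was 40.4% for HSPE1, for the most part its read-through gene HSPE1-MOB4, 11.1% for HSPD1, 6.66% or less for HSP90AA1, HSP90AB1, HSPA8 and HSF1, and 0 for HSPH1 and DNAJB1. HSPD1 and HSPE1 overlap on opposite strands and the use of strand in counting was not stated, so their counts, and those of HSPE1 above all, are uncertain.

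The first question was whether MXD3 or the fusion changed the heat shock genes. No member passed the threshold in any of the 3 plasmid comparisons (0 of 9 tested in each; edgeR quasi-likelihood test, Benjamini-Hochberg adjusted p under 0.05 over all genes). The share of all genes called was 0.00648% for STIM1::MXD3 against EV, 0.00648% for MXD3 against EV and 0.0% for STIM1::MXD3 against MXD3. The same test did not call the rise of STIM1 with the fusion (log2 1.28 against EV, adjusted p = 0.36, edgeR). With the replicate number in the model STIM1 passed (adjusted p = 4.3e-07, edgeR). The absence of calls does thus not show that the members were unchanged. At an unadjusted p under 0.05 there were also 0 members in each comparison, against 147 (0.953%), 287 (1.86%) and 156 (1.01%) of all genes. DESeq2 called 0 members as well, beside 0.0194%, 0.0194% and 0.00648% of all genes in the same order. Leaving aside HSPA1B, the largest log2 fold changes against EV were -0.43 for DNAJB1 with MXD3 and 0.25 for HSPE1 with the fusion. Without the block both rested on which library was left out, and ran from -0.95 to -0.0011 for DNAJB1 and from 0.013 (without STIM1::MXD3 replicate 2) to 0.49 (without EV replicate 2) for HSPE1. The median log2 fold change of the 9 tested members was 0.06 for the fusion and -0.0019 for MXD3, beside 0.0096 and 0.0011 over all genes tested. Here and below the 9 tested members include HSPA1B, though no direction is read from its values.

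**Figure D1:**
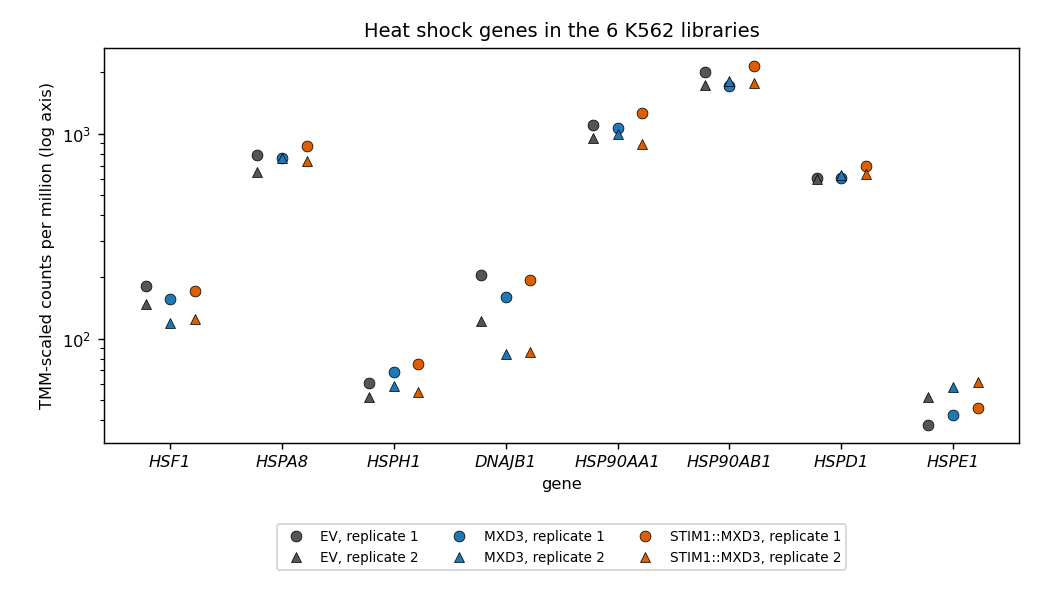
TMM-scaled CPM of the 8 heat shock genes with usable counts in each of the 6 libraries, on a log axis. Colours stand for the plasmid groups, circles for replicate 1 and triangles for replicate 2. DNAJB1, HSF1, HSPH1 and HSP90AA1 are split by replicate number, with every circle above every triangle, and HSPE1 is split the other way.

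HSF1, the regulator, stood at 180 and 148 CPM in EV, 157 and 120 CPM with MXD3, and 172 and 124 CPM with STIM1::MXD3, replicate 1 first here and below. In each group replicate 1 was the higher library, and the groups overlapped. The means were 164 ± 22.5, 138 ± 26.3 and 148 ± 33.6 CPM (SD, n = 2 each). Against EV, HSF1 had a log2 fold change of -0.25 ± 0.21 (SE) in the MXD3 group and -0.15 ± 0.21 in the fusion group, with 95% intervals of -0.75 to 0.25 and -0.65 to 0.35 (adjusted p = 1.00 for both, edgeR).

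Among the cytosolic HSP70 machinery, HSPA8 stood at 785 and 652 CPM in EV, 764 and 766 CPM with MXD3, and 868 and 737 CPM with the fusion. Both MXD3 libraries lay within the range of the EV libraries, and of the fusion libraries replicate 1 lay above it and replicate 2 inside it. The log2 fold change of HSPA8 for the fusion against EV was 0.16 ± 0.15 (95% interval -0.19 to 0.51; adjusted p = 1.00, edgeR). HSPH1 stood at 61.0 and 51.8 CPM in EV, 68.6 and 58.7 CPM with MXD3, and 75.5 and 54.8 CPM with the fusion. Within each replicate number the EV library of HSPH1 was the lowest of the 3. Its log2 fold change was 0.17 with MXD3 and 0.21 ± 0.19 with the fusion, and neither passed the threshold (adjusted p = 1.00, edgeR).

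DNAJB1 stood at 205 and 122 CPM in EV, 159 and 83.9 CPM with MXD3, and 193 and 86.1 CPM with the fusion. Within each replicate number EV was the highest and MXD3 the lowest library, but the distance between the replicate numbers was larger than that between the plasmids, so that the groups overlapped. The means were 164 ± 59.0, 122 ± 53.4 and 140 ± 75.6 CPM (SD, n = 2 each). Against EV, DNAJB1 had a log2 fold change of -0.43 ± 0.46 in the MXD3 group (95% interval -1.51 to 0.66) and -0.23 ± 0.46 in the fusion group (-1.31 to 0.85), and did not pass the threshold (adjusted p = 1.00 for both, edgeR).

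The cytosolic HSP90 genes differed little between plasmids. HSP90AA1 stood at 1109 and 955 CPM in EV, 1068 and 993 CPM with MXD3, and 1259 and 896 CPM with the fusion. The fusion libraries were thus the highest and the lowest of the 6. HSP90AB1 stood at 2013 and 1739 CPM in EV, 1702 and 1820 CPM with MXD3, and 2148 and 1775 CPM with the fusion, with overlap between all groups. The log2 fold change of both genes for the fusion against EV was 0.06, with an SE of 0.18 for HSP90AA1 and 0.15 for HSP90AB1 (adjusted p = 1.00 for both, edgeR).

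Of the mitochondrial chaperonin, HSPD1 was the steadiest member, at 610 and 604 CPM in EV, 606 and 628 CPM with MXD3, and 695 and 639 CPM with the fusion. Its highest value was 1.15 times its lowest. Its fusion libraries were the highest of the 6, and the log2 fold change against EV was 0.14 ± 0.12 (95% interval -0.14 to 0.41; adjusted p = 1.00, edgeR). HSPE1 stood at 38.1 and 51.8 CPM in EV, 42.7 and 58.0 CPM with MXD3, and 45.6 and 61.3 CPM with the fusion. Within each replicate number HSPE1 was lowest in EV and highest with the fusion, and here replicate 2 was the higher library. The log2 fold change of HSPE1 for the fusion against EV was 0.25 ± 0.23 (95% interval -0.30 to 0.81; adjusted p = 1.00, edgeR).

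Between the constructs, the log2 fold change of STIM1::MXD3 against MXD3 was positive for 8 of the 8 well-counted members, compared with 52.1% of all genes tested. This tally rested on single libraries: it was 3 of 8 without STIM1::MXD3 replicate 1, 5 of 8 without MXD3 replicate 2 and 7 or 8 of 8 without any of the others. The values were small, with a median over the 9 tested members of 0.10 beside 0.0083 over all genes, and the largest among the 8 well-counted members was 0.20 ± 0.46 for DNAJB1 (adjusted p = 1.00, edgeR). In the pairs of replicate 2 the fusion library was the lower one for HSPA8, HSPH1, HSP90AA1 and HSP90AB1. The comparisons with EV share the EV libraries, and this comparison shares both plasmid groups with them, so their values are not independent.

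Since libraries with the same replicate number deviated together from their group means, the replicate number was also taken as a block, which removes the difference between the numbers from the spread. Paired in this way, 0 members passed the threshold in edgeR in any comparison, beside 0.0194% of all genes for the fusion against EV, 0.292% for MXD3 against EV and 0.00648% between the constructs. At an unadjusted p under 0.05 there were then 2 of 9 members for the fusion, DNAJB1 and HSPE1, 2 for MXD3, DNAJB1 and HSF1, and 0 between the constructs. Over all genes there were 1311 (8.5%), 2149 (13.9%) and 1001 (6.49%) in the same order. DNAJB1 with MXD3 was nearest to the threshold. Its log2 fold change with the block was -0.46 ± 0.10 (95% interval -0.66 to -0.25; adjusted p = 0.0589, edgeR), and the pairs gave -0.37 in replicate 1 and -0.54 in replicate 2. DESeq2 with the block called DNAJB1 lower with MXD3 (-0.46 ± 0.11, adjusted p = 0.00836), the 1 member called there, beside 1.08% of all genes. It called 0 members for the fusion against EV and between the constructs, beside 0.117% and 0.0518% of all genes.

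The call on DNAJB1 depended on single libraries. In the edgeR fit with the block it passed when EV replicate 1 (-0.60, adjusted p = 4.87e-04), MXD3 replicate 2 (-0.47, adjusted p = 0.0413), STIM1::MXD3 replicate 1 (-0.45, adjusted p = 0.00931) or STIM1::MXD3 replicate 2 (-0.45, adjusted p = 5.21e-04) was left out. With EV replicate 2 (-0.30, adjusted p = 0.320) or MXD3 replicate 1 (-0.43, adjusted p = 0.325, edgeR) left out, the threshold was missed. Each of these fits has 1 residual degree of freedom, and where the library left out belongs to EV or MXD3 that group is a single library, assumed to vary like the other groups. All of them also called more genes for MXD3 against EV than the fit with every library, so no call is read from them. DNAJB1 with MXD3 was lower in all of these fits.

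With the block, DNAJB1 with the fusion had a log2 fold change of -0.29 ± 0.10 (95% interval -0.50 to -0.09; adjusted p = 0.474, edgeR), with -0.09 in the pair of replicate 1 and -0.50 in that of replicate 2. This fold change depended on single libraries. It was -0.44 with the first EV library dropped and -0.15 with the second dropped. For the fusion libraries it was -0.46 with the first dropped and -0.13 with the second dropped. The group concerned was then a single library, with the spread taken from the other groups. HSF1 with MXD3 was at -0.25 ± 0.08 (-0.43 to -0.08, adjusted p = 0.187, edgeR). Its value moved to -0.33 with the first EV library dropped and to -0.175 with the second dropped. It stayed at -0.25 when either MXD3 library was dropped. Each of these fits also had 1 group with a single library. HSPE1 with the fusion was at 0.25 ± 0.09 (0.05 to 0.45; adjusted p = 0.518, edgeR), with nearly equal pairs of 0.26 and 0.24.

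**Figure D2:**
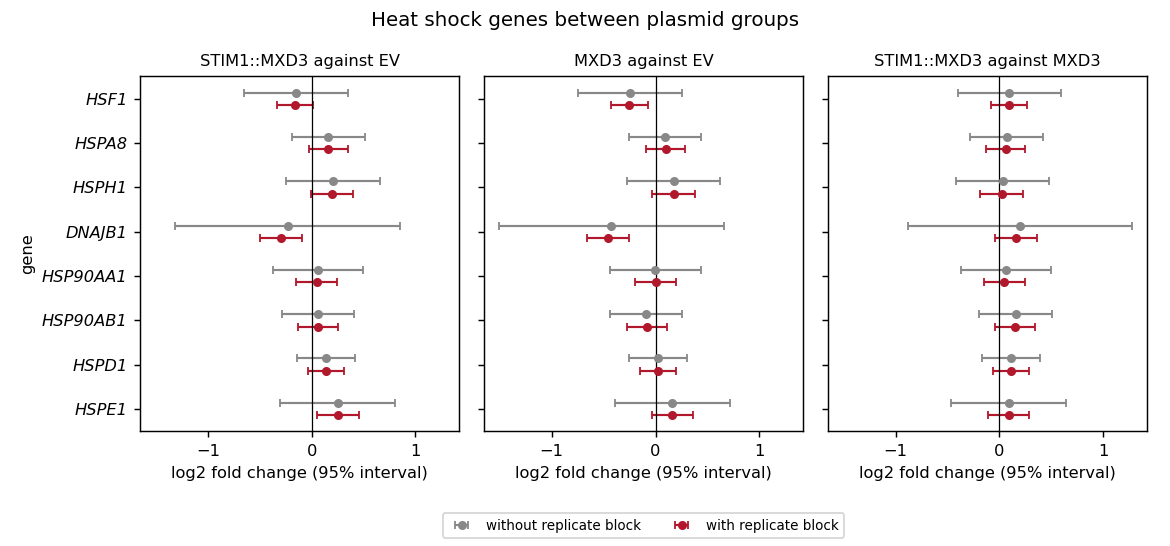
Log2 fold change of the 8 genes in the 3 plasmid comparisons, with 95% intervals from edgeR without (grey) and with (red) the replicate number as a block. The grey intervals all span 0, and with the block those of DNAJB1 and HSPE1 for the fusion and of DNAJB1 and HSF1 for MXD3 lie to 1 side of it before adjustment over all genes.

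For DNAJB1, HSF1, HSPH1, HSP90AA1 and HSPE1 the log2 difference between replicate numbers was larger in size than any between plasmids (edgeR). For HSPD1 it was smaller, at -0.03 against 0.14 for the fusion against EV. It was also smaller for HSP90AB1, at -0.13 against 0.16 between the constructs. For HSPA8 the sizes were nearly equal, at -0.17 against 0.16 for the fusion against EV. With the plasmid group in the model, 5 of the 9 tested members differed between replicate 2 and replicate 1 (1 higher and 4 lower; edgeR, adjusted p under 0.05), or 55.6%, beside 29.2% of all genes tested (13.1% higher and 16.1% lower). DNAJB1, HSF1, HSPH1 and HSP90AA1 were lower in replicate 2, and HSPE1 was higher. The median log2 difference of the 9 tested members, HSPA1B included, was -0.27, beside 0.0062 over all genes. DESeq2 also called 5 members, beside 27.2% of all genes. Each number has 1 library per plasmid. The p-values here rest on how far the difference varied among the plasmids, not on repeats of either number. What the numbers stand for in the laboratory, such as a day or a passage of cells, was not given in the sources used here.

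DNAJB1 had the largest change among the well-counted members. Its mean fell from 186 CPM in the replicate 1 libraries to 97.3 CPM in those of replicate 2, a log2 difference of -0.95 ± 0.08 (95% interval -1.11 to -0.78; adjusted p = 1.86e-06, edgeR), or 1.93 times lower. The difference was -0.75 in EV, -0.93 with MXD3 and -1.16 with the fusion, so it was seen in all 3 plasmid groups. Among the 15431 genes DNAJB1 ranked 321 by the size of the fall and 18 by p-value.

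HSF1 fell from 170 to 131 CPM, with a log2 difference of -0.38 ± 0.07 (adjusted p = 7.38e-04, edgeR), and it was lower in each group, by -0.28, -0.39 and -0.47. HSPH1 fell from 68.4 to 55.1 CPM (-0.31 ± 0.08, adjusted p = 0.00793) and HSP90AA1 from 1145 to 948 CPM (-0.27 ± 0.08, adjusted p = 0.0142, edgeR). The calls on the latter pair rested on the fusion libraries. Without STIM1::MXD3 replicate 1 the difference was -0.23 for HSPH1 and -0.16 for HSP90AA1 (adjusted p = 0.0752 and 0.129, edgeR), and without STIM1::MXD3 replicate 2 it was -0.21 and -0.14 (adjusted p = 0.0802 and 0.188, edgeR).

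HSPE1 rose 1.35-fold, from 42.1 to 57.0 CPM, a log2 difference of 0.44 ± 0.08 (adjusted p = 6.51e-04, edgeR), with 0.44, 0.44 and 0.43 in EV, MXD3 and the fusion. Its chaperonin partner HSPD1 gave -0.03 ± 0.07 (adjusted p = 0.791, edgeR), with means of 637 and 624 CPM. The constitutive genes HSPA8 (-0.17 ± 0.07, adjusted p = 0.0946) and HSP90AB1 (-0.13 ± 0.07, adjusted p = 0.211, edgeR) did not pass the threshold, and with MXD3 their replicates differed by 0.0029 and 0.10, in the opposite direction to EV and the fusion. The share of mitochondrial counts, between 1.45% and 3.73%, was higher in replicate 1 of EV and in replicate 2 of MXD3 and of the fusion. Its part in these results was not tested.

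**Figure D3:**
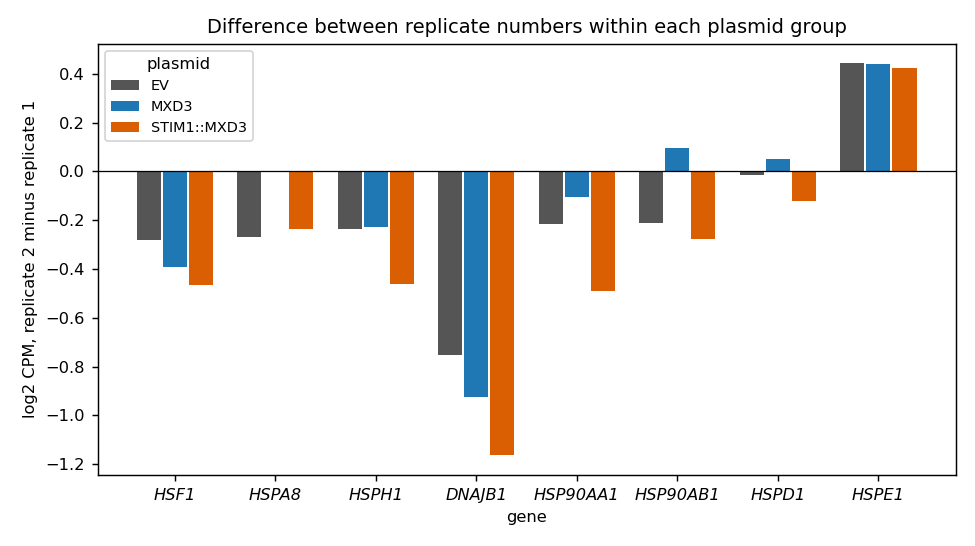
Log2 CPM of replicate 2 minus replicate 1 for the 8 genes, with 1 bar for each plasmid group and thus 1 pair of libraries per bar. DNAJB1 is lower in replicate 2 in all 3 groups (-0.75, -0.93 and -1.16), HSF1, HSPH1 and HSP90AA1 are lower by less, and HSPE1 is higher by 0.43 to 0.44.

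**Figure D4:**
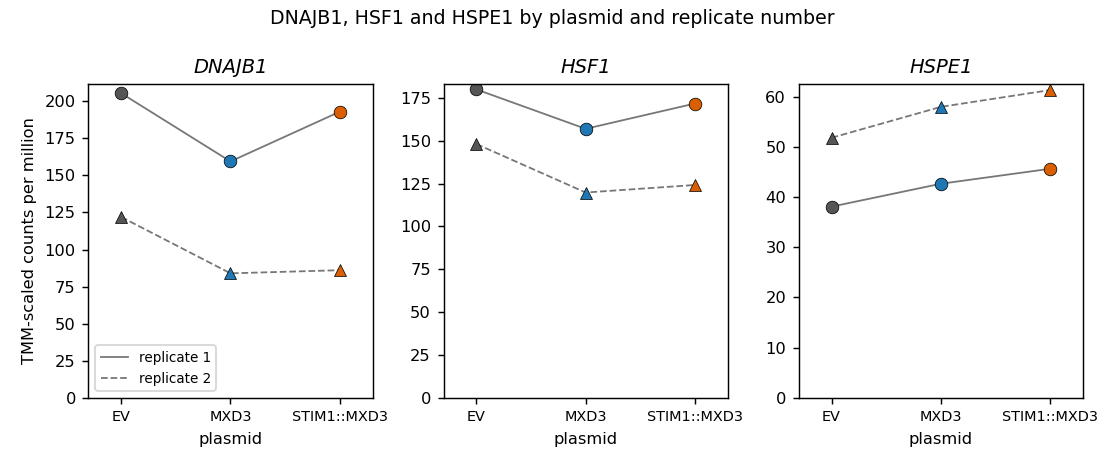
TMM-scaled CPM of DNAJB1, HSF1 and HSPE1 by plasmid, on axes that start at 0, with a line for each replicate number. The lines of DNAJB1 and HSF1 have their lowest point at MXD3, those of HSPE1 are lowest at EV and highest at STIM1::MXD3, and in each panel the replicate lines do not cross.

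The wider chaperone network was examined with 4 lists written from general knowledge. In the 3 plasmid comparisons 0 genes of any list were called, with or without the block (edgeR). At an unadjusted p under 0.05 without the block there were 0 genes per list and comparison, apart from 1 HSP70 co-chaperone with MXD3. Over all genes the shares were 0.953% to 1.86%. With the block there were 0 to 3, the 3 being HSP70 co-chaperones, of 19 tested, between the constructs. Over all genes the shares were then 6.49% between the constructs, 8.5% for the fusion and 13.9% for MXD3 against EV. Between the replicate numbers, 8 of 17 tested HSF family members and HSF1 targets were called, 1 higher and 7 lower, with a median of -0.16. Over all genes tested 13.1% were called higher and 16.1% lower, with a median of 0.0062. Of 19 HSP70 co-chaperones and relatives, 3 were higher and 5 lower (median -0.06), of 17 HSP90 co-chaperones and relatives 2 were higher and 2 lower (0.07), and of 14 mitochondrial chaperones and proteases 1 was higher and 1 lower (0.09), the last 2 lists with a smaller share called than the 29.2% of all genes. HSPA1L and HSPA2 were listed but too low to be tested.

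Among the HSF family and HSF1 targets, HSPB1, the small heat shock protein HSP27, stood at 251 and 170 CPM in EV, 206 and 161 CPM with MXD3, and 246 and 152 CPM with the fusion. All replicate 1 libraries of HSPB1 lay above all those of replicate 2, as for DNAJB1 and HSF1. HSPB1 was lower in replicate 2 by -0.54 ± 0.07 (adjusted p = 9.83e-05, edgeR), HSF2, a second heat shock factor, by -0.63 ± 0.10 (3.07e-04), CRYAB, the small chaperone αB-crystallin, by -0.97 ± 0.17 (7.20e-04) and BAG3, which links HSP70 to autophagy, by -0.38 ± 0.07 (0.00131). The ubiquitin gene UBB, at 642 CPM per kb the highest gene of the list, had a difference of 0.06 ± 0.07 that did not pass (adjusted p = 0.555, edgeR).

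Among the HSP70 partners, the called genes with the smallest p-values were all lower in replicate 2: BAG2 by -0.44 ± 0.08 (adjusted p = 7.91e-04), the J-domain proteins DNAJB4 by -0.62 ± 0.12 (0.00104) and DNAJB14 by -0.42 ± 0.10 (0.00397), and HSPA4, a relative of HSPH1, by -0.27 ± 0.07 (0.00919, edgeR). The highly expressed ST13 and DNAJC7, at 124 and 56.4 CPM per kb, had log2 differences of -0.06 and 0.09 (adjusted p = 0.526 and 0.366, edgeR). The HSP90 partners went both ways. NUDC (0.32 ± 0.07, adjusted p = 0.00182) and the phosphatase PPP5C (0.26 ± 0.07, 0.0132) were higher in replicate 2, and TSC1 (-0.36 ± 0.08, 0.00426) and PTGES3, the p23 co-chaperone (-0.24 ± 0.07, 0.0116, edgeR), were lower.

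HSP90B1, the HSP90 of the endoplasmic reticulum, was the highest gene of the HSP90 list at 487 CPM per kb, followed by STIP1, which bridges HSP70 and HSP90, at 145 and the kinase co-chaperone CDC37 at 113. HSP90B1 had a log2 fold change of -0.27 ± 0.16 with MXD3 against EV, the others -0.03 each, and none passed (adjusted p = 1.00 for all, edgeR). In the mitochondrial list the protease subunit CLPX was lower in replicate 2 (-0.29 ± 0.08, adjusted p = 0.0103) and the exchange factor GRPEL2 was higher (0.24 ± 0.08, adjusted p = 0.0292, edgeR). The main mitochondrial HSP70, HSPA9, at 219 CPM per kb, the protease LONP1 at 148 and the HSP90 relative TRAP1 at 119 were not called between plasmids or replicate numbers.

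The genes with the pattern most like the members were also listed, as a description over 6 libraries that differ in depth and replicate number for every gene alike. The fixed rule takes the member with the widest range of log2 CPM, which was HSPA1B because of its few counts, and the 5 genes of at least 5 CPM with the highest Pearson r were H1-10 (0.989), CPEB3, FERMT3, TFE3 and CENPBD2P. For DNAJB1, chosen after its values were seen, they were ZMYM5 and SHOC2 (0.9991 each), SMAD6 (0.9987), RNF10 (0.9986) and TMUB1 (0.9984), and 858 genes had r over 0.95. Among the members, r with DNAJB1 was 0.992 for HSF1, 0.834 for HSP90AA1, 0.653 for HSPH1, 0.601 for HSP90AB1, 0.479 for HSPA8, 0.142 for HSPD1 and -0.945 for HSPE1. The 5 genes most like DNAJB1 were higher in every replicate 1 library than in any replicate 2 library. Within each number SHOC2, SMAD6, RNF10 and TMUB1 were also highest in EV and lowest with MXD3, as DNAJB1 was. For ZMYM5 the fusion was the lowest in replicate 2 (12.5 CPM, against 12.6 CPM with MXD3). In replicate 2 the MXD3 and fusion libraries were nearly equal for SHOC2 (17.7 and 17.8 CPM) and RNF10 (257.2 and 257.8 CPM). These genes were picked by r with DNAJB1 over the same 6 libraries. Their shared order follows from that choice, and nothing about the plasmids is read from it.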

How the data were processed

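RNA was sequenced from 6 K562 libraries, 2 for each of the plasmids EV, MXD3 and STIM1::MXD3, grouped by their labels. The deposited tables, 1 per library, held raw counts of reads under NCBI Gene identifiers. The study describes poly A libraries read as pairs, aligned to hg19 and analysed with the DRAGEN RNA Pipeline, whereas the submitters' processing notes name HISAT2 2.2.1 and featureCounts 2.0.1. Which of these made the counts, the annotation, the use of strand and the treatment of reads with several positions were not given in the sources used here. Between 59.8% and 67.3% of counts from 1 to 39 were even, so both ends of a pair may have been counted.

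Of 25702 identifiers, 23696 were matched to a symbol, and unmatched ones held 0.225% to 0.277% of counts. Genes were kept with filterByExpr (15431) and scaled with TMM. Levels are CPM. Length is that of the canonical transcript in GENCODE v44 lifted to GRCh37, used for positions too. Log2 CPM had a prior count of 2. Groups were compared with the two-sided quasi-likelihood test of edgeR 4.0.16 (R 4.3.3), 1 fit over 6 libraries without covariates, and replicate numbers in a fit with group and number. P-values were adjusted over all genes by the Benjamini-Hochberg method with a threshold of 0.05. Scripts were tested on simulated data.

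Libraries with equal numbers deviated together from the means of their groups, with r of 0.270 (EV and MXD3), 0.364 (EV and STIM1::MXD3) and 0.450 (MXD3 and STIM1::MXD3) over all genes, each above 0.1, so the numbers were taken to pair the libraries and the fit with the block is given beside the results.

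The members and lists were chosen with earlier results of these data known. Named genes were all members, the genes of each list called (at most 4 per comparison, by p) and the 3 highest per kb, the genes most like the member with the widest range, and MXD3 and STIM1. A gene that this rule names is not reported here. Alternatives were DESeq2 1.42.0 (without independent filtering), median-ratio scaling, no filter, the replicate block, the 4 libraries compared alone, counts divided by 2, HSPA1A and HSPA1B summed, and each library left out. The block with each library left out was added after seeing the data. Intervals are for 95% and rest on the spread between libraries. Protein sequences were not analysed here.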

Additional observations from a re-analysis of the deposited data

Results flagged for a closer look

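The log2 ratio of STIM1::MXD3 to MXD3 had opposite signs in the pairs of replicate 1 and replicate 2 for 5 of the 9 tested members, and for 2 of them, HSP90AA1 and HSPA1B, it was over 0.1 in size in both pairs. For HSP90AA1 the log2 ratio of the fusion to the MXD3 library was 0.24 in replicate 1 and -0.15 in replicate 2. For HSPA1B it was -0.16 in replicate 1, on 12 and 9 counts, and 1.26 in replicate 2, on 0 and 3 counts, from which no direction is read. HSPA8, HSPH1 and HSP90AB1 were the other three. Each pair has 1 library per plasmid, so the difference was not tested.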

How the results depend on the processing

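Of the values of single genes under other settings, 564 kept their direction and their side of the threshold, 49 changed sign, 7 passed only under the alternative and 4 lost the threshold. The counts of all genes called moved by over 1.5 times as follows. For the fusion against EV (1 gene) they were 3 with DESeq2, 2 with no filter, 3 with the replicate block and 18 with DESeq2 and the block. For MXD3 against EV (1 gene) they were 3 with DESeq2, 45 with the block and 166 with DESeq2 and the block. Between the constructs (0 genes) they were 1 with DESeq2, 1 with no filter, 1 with the block and 8 with DESeq2 and the block. Members called rose from 0 to 1 for MXD3 against EV with DESeq2 and the block. HSP90AA1 with MXD3 changed sign to 0.0021 with no filter and 0.0032 with the block. The block in edgeR changed no call on a heat shock gene.

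Leaving out each library in turn gave the following ranges, without the block and, after the stroke, with it. Genes called were 1 to 2 / 52 to 721 for MXD3 against EV, with the block 14 to 170 for the fusion against EV and 6 to 137 between the constructs, and 2580 to 4424 between replicate numbers. Members called with the block were 0 to 2 for MXD3 and 0 to 1 for the fusion against EV, and 3 to 5 between replicate numbers. For the fusion against EV, log2 fold changes were -0.93 to 0.23 for DNAJB1, -0.40 to 0.059 for HSF1, -0.042 to 0.41 for HSPH1, 0.013 to 0.49 / 0.24 to 0.26 for HSPE1, -0.20 to 0.28 / -0.12 to 0.21 for HSP90AA1 and -0.079 to 0.19 / -0.048 to 0.17 for HSP90AB1. For MXD3 against EV they were -0.95 to -0.0011 / -0.60 to -0.30 for DNAJB1, -0.10 to 0.11 / -0.13 to 0.13 for HSP90AA1, -0.19 to 0.020 / -0.26 to 0.088 for HSP90AB1, -0.035 to 0.23 / -0.033 to 0.23 for HSPA8, -0.013 to 0.061 / -0.040 to 0.087 for HSPD1 and -0.087 to 0.40 for HSPE1. Between the constructs they were -0.50 to 0.72 / -0.0095 to 0.32 for DNAJB1, -0.16 to 0.30 for HSF1, -0.20 to 0.28 / -0.12 to 0.21 for HSP90AA1, with the block -0.027 to 0.32 for HSP90AB1, -0.98 to 5.60 / -0.37 to 4.82 for HSPA1B, -0.055 to 0.17 / -0.070 to 0.19 for HSPA8, -0.15 to 0.34 for HSPE1 and -0.22 to 0.24 / -0.10 to 0.14 for HSPH1. Between replicate numbers they were -0.055 to 0.036 for HSPD1, -0.34 to -0.14 for HSP90AA1 and -0.35 to -0.21 for HSPH1. The causes were not tested. Summing HSPE1 with HSPE1-MOB4 was not run, since the latter was not used here. With 2 libraries per group, effects of the size of the replicate difference can be missed, and without the block the interval of DNAJB1 spans more than a 2-fold change.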

Other observations

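HSPA6, the strictly inducible HSP70 gene of chromosome 1, passed the filter and was picked here after its values were seen. It stood at 2.12 and 4.81 CPM in EV, 3.02 and 3.33 CPM with MXD3, and 2.96 and 6.14 CPM with STIM1::MXD3. In each group replicate 2 was the higher library, the opposite order to DNAJB1, HSPB1 and HSF1. With MXD3 the gene had 194 and 187 counts, so its order in that group rests on the scaling and is uncertain. Its count is uncertain, as its sequence is close to that of HSPA7.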
